A study of Arabidopsis thaliana with 8 samples.

Results

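The genes described here encode enzymes that remove active auxin from plant cells: 8 members of the GH3 family (GH3.1, GH3.2, GH3.3, GH3.4, GH3.5, GH3.6, GH3.9 and GH3.17) and the dioxygenase gene DAO1. They were chosen by locus identifier, as 9 of the 27444 protein-coding genes on the nuclear chromosomes of Arabidopsis thaliana, and the values below are the positions and scores of ChIP-seq summits inside each gene or within 3000 bp of either end. ChIP with an anti-GFP antibody was made from root apical meristems of plants that had grown in long days at 22 °C for 3 days, following 5 days of stratification. The ARR12-GFP group (2 libraries from independent biological replicates) carried a GFP fusion of ARR12 in the Col-0 ecotype. The control group (also 2 libraries) is given the genotype control by the labels and is named Col-0 by the series' design text. The titles of its libraries read GFP, and the group is called Col-0 here. The labels do not state the promoter that drives the fusion, the number of lines or the state of the endogenous ARR12 gene. Summit lists hold no expression values, so the labelled tissue could not be checked against marker genes.

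ARR12 is a B-type response regulator, a transcription factor that acts at the end of the cytokinin phosphorelay and switches on early cytokinin response genes. Cytokinin and auxin act against each other at the root tip, where the border between dividing and elongating cells depends on where auxin is depleted. Enzymes of the GH3 family join the auxin indole-3-acetic acid (IAA) to amino acids, which stores it or marks it for breakdown, and DAO1 oxidizes IAA. Several GH3 genes are themselves switched on rapidly by auxin, so the family works as a feedback on the auxin level, and GH3.17 is known as a cytokinin-responsive gene of the root tip.

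Near the 9 genes, summits were found in the ARR12-GFP libraries and in neither Col-0 library. ARR12-GFP replicate 1 had 13 summits within 3000 bp of them, ARR12-GFP replicate 2 had 11, Col-0 replicate 1 had 0 and Col-0 replicate 2 had 0. The ARR12-GFP libraries were both above the Col-0 libraries, with a difference in means of 12 summits. A two-sided exact permutation test over the 4 libraries gave p = 0.333, the smallest p that 2 against 2 libraries allow. The Col-0 lists are much shorter. The 13 summits were 0.16% of the 8137 nuclear summits of ARR12-GFP replicate 1 (exact Clopper-Pearson 95% interval 0.0851 to 0.273), and the 11 were 0.2% of the 5492 of replicate 2 (0.1 to 0.358). By the same interval, a count of 0 among the 199 nuclear summits of Col-0 replicate 1 allows a share of up to 1.84%. For 0 of 251 in Col-0 replicate 2 the limit is 1.46%. Both limits are above the ARR12-GFP shares. A difference in the share of summits near these genes was therefore not detectable with lists of this length. Intervals and limits cover counting error only, and read depth per library is unknown from the files.

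**Figure D1:**
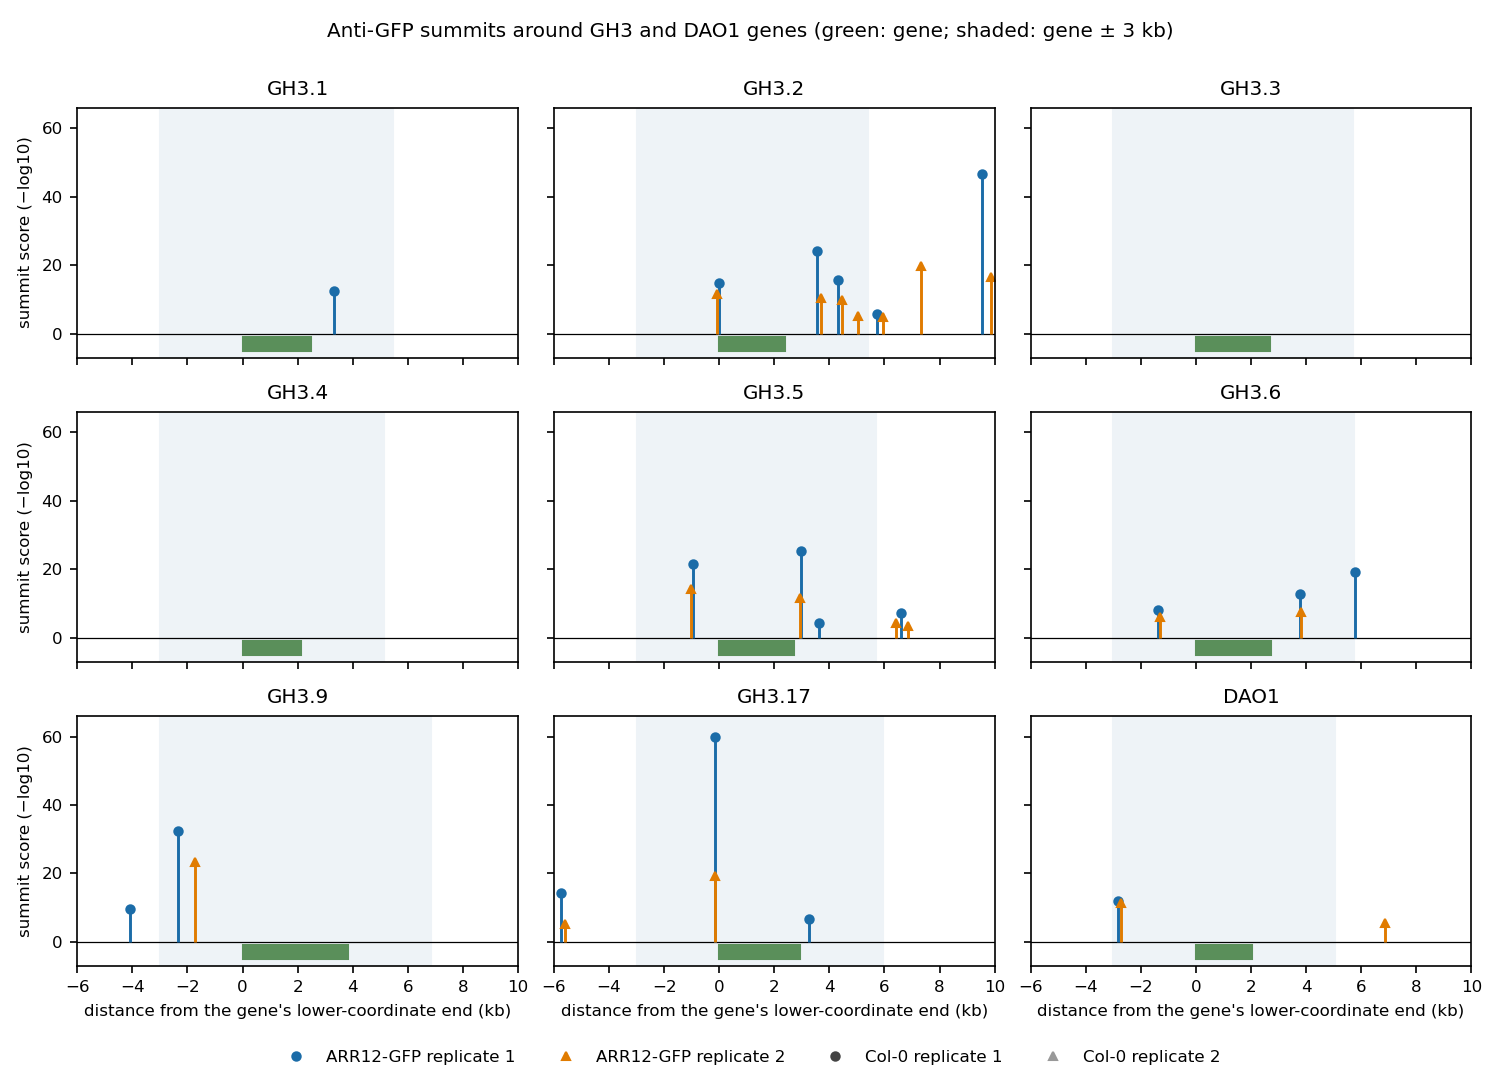
Positions (kb from the lower-coordinate end of each gene) and scores (−log10 scale, as deposited) of anti-GFP summits around the 9 genes, with circles for replicate 1, triangles for replicate 2, a green bar for the gene and shading for the gene and 3 kb on either side. GH3.17 has the tallest summit, and GH3.5 and GH3.6 have paired summits on both sides. GH3.2 has a pair across its lower-coordinate end and further pairs on the other side. GH3.3 and GH3.4 have none, and no Col-0 summit falls in any panel.

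Of the 9 genes, 7 had a summit of ARR12-GFP replicate 1 within 3000 bp, a rule met by 38.8% of all protein-coding genes, and 6 had one of replicate 2, against 27.5%. The same 6 genes (GH3.2, GH3.5, GH3.6, GH3.9, GH3.17 and DAO1) had a summit of each library, against 24.5%. A reproducible site is defined here as summits of both ARR12-GFP libraries joined within 200 bp, with no Col-0 summit within 200 bp. By that rule 5 of the 9 genes (55.6%) had at least 1 of the 3503 sites of the genome, against 20.4% of all genes, and 3 had at least 2 sites, against 4.49%. For Col-0, 0 of the 9 genes had a summit of either replicate, beside 0.794% of all genes for replicate 1 and 0.929% for replicate 2. These shares describe a set of 9 genes that was chosen by name with earlier results of these data known, and no test of the set was made.

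GH3.17 (AT1G28130), an enzyme that acts mainly by joining IAA to glutamate, had the highest-scoring site of the set. Replicate 1 had a summit at position 9825004 of chromosome 1 in TAIR10 coordinates with a score of 60.0, which ranked 150 of 8175 in its list. Replicate 2 had its summit 17 bp away, at 9825021, with a score of 19.2 and rank 554 of 5492. The score is the authors' own −log10 value for each peak and is used here only to rank summits within a list. The joined site at 9825012 lay 157 bp outside the gene on its lower-coordinate side and ranked 267 of the 3503 reproducible sites by mean score percentile. Of all protein-coding genes, 1.65% had a site at or above that percentile within 3000 bp. This threshold was set by the GH3.17 site itself, the highest of the set, so the share is only a description. On the other side of the gene replicate 1 had a weaker summit at 317 bp, with a score of 6.63 and rank 6003, and replicate 2 had no summit there within 3000 bp. The nearest other protein-coding gene to the GH3.17 site was 4249 bp away.

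GH3.5 and GH3.6, which encode IAA-amido synthetases of the auxin-inducible branch of the family, each had a reproducible site on either side of the gene. GH3.5 (AT4G27260, also WES1), whose product also acts on salicylic acid, had its lower-coordinate site at 13652589 of chromosome 4, 990 bp from the gene, with scores of 21.7 and 14.2 in replicates 1 and 2 (ranks 1503 and 1010). Its higher-coordinate site at 13656520 lay 235 bp from the gene with scores of 25.4 and 11.7 (ranks 1163 and 1389). Replicate 1 alone had a further summit 912 bp away with a score of 4.19, at rank 7718 near the end of its list. The summits of both GH3.5 sites thus lay between percentiles 74.7 and 85.8 of their lists.

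GH3.6 (AT5G54510, also DFL1), named for the dwarf growth in light of plants that overexpress it, had the sites of the lowest mean score percentile of the set, at 35.5 and 56.0. Its lower-coordinate site at 22129614 of chromosome 5, 1350 bp from the gene, had scores of 8.08 and 5.96 (percentiles 38.0 and 33.0). Its higher-coordinate site at 22134758, 1070 bp from the gene, had scores of 12.7 and 7.59 (percentiles 61.6 and 50.3). When summits below the median score of their list were left out, GH3.6 kept 1 of the 2 sites. The pair of summits at each GH3.6 site lay 68 and 39 bp apart.

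GH3.2 (AT4G37390, listed as BRU6 and also called YDK1), another auxin-inducible IAA-amido synthetase gene, had 3 reproducible sites within 3000 bp, the most of the set. At least 3 sites were found for 0.907% of all genes. The nearest lay at 17579577 of chromosome 4, at the lower-coordinate end of the gene: the replicate 1 summit was inside the gene and the replicate 2 summit was 91 bp outside, with scores of 14.6 and 11.4 (ranks 2605 and 1444). The other sites, at 17583247 and 17584001, lay 1225 and 1979 bp away on the higher-coordinate side with scores of 24.2 and 10.3, and of 15.6 and 9.88. Both were nearer to CYP81F3, a cytochrome P450 gene, than to GH3.2: the first was 745 bp from it and the second inside it. When each site was given only to its nearest protein-coding gene GH3.2 kept 1 site. It also kept 1 when summits were joined within 100 bp, because the summits of the higher-coordinate pairs lay 151 and 156 bp apart. Replicate 2 had a further summit at 2641 bp with a score of 5.09, without a partner in replicate 1.

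A site outside the gene on each of its sides was found for 3 of the 9 genes (GH3.2, GH3.5 and GH3.6) and for 1.54% of all protein-coding genes. GH3.2 counts here through the midpoint of its lower-coordinate site, 41 bp outside the gene, as the replicate 1 summit lay inside. Its higher-coordinate sites were both nearer to CYP81F3 than to GH3.2. The annotation used gives no strand, so the sides are named by coordinate and are not told apart as upstream and downstream.

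DAO1 (AT1G14130), the IAA oxidase gene, had 1 site near the edge of the searched region. Replicate 1 had a summit at 4832893 of chromosome 1 with a score of 11.9 (rank 3412) and replicate 2 one at 4833000 with a score of 11.5 (rank 1434). The joined site at 4832946 lay 2778 bp from DAO1 and 450 bp from AT1G14120, the protein-coding gene that lies between the site and DAO1. DAO1 had no site when 1500 bp were searched, when summits were joined within 100 bp (its summits lay 107 bp apart), or when a site went only to the nearest gene.

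GH3.9 (AT2G47750), a further member of the IAA-conjugating branch, had high-scoring summits in both libraries that did not coincide. The replicate 1 summit, at 19557801 of chromosome 2, had a score of 32.5 (rank 761, 2326 bp from the gene). The replicate 2 summit, at 19558402, had a score of 23.3 (rank 342, 1725 bp from the gene) and was the highest-scoring replicate 2 summit near any of the 9 genes. They lay 601 bp apart, more than even a joining distance of 500 bp allows, and both were inside GSTF8, a glutathione transferase gene next to GH3.9. A summit of each library within 3000 bp without a reproducible site was found for 4.23% of all genes.

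**Figure D2:**
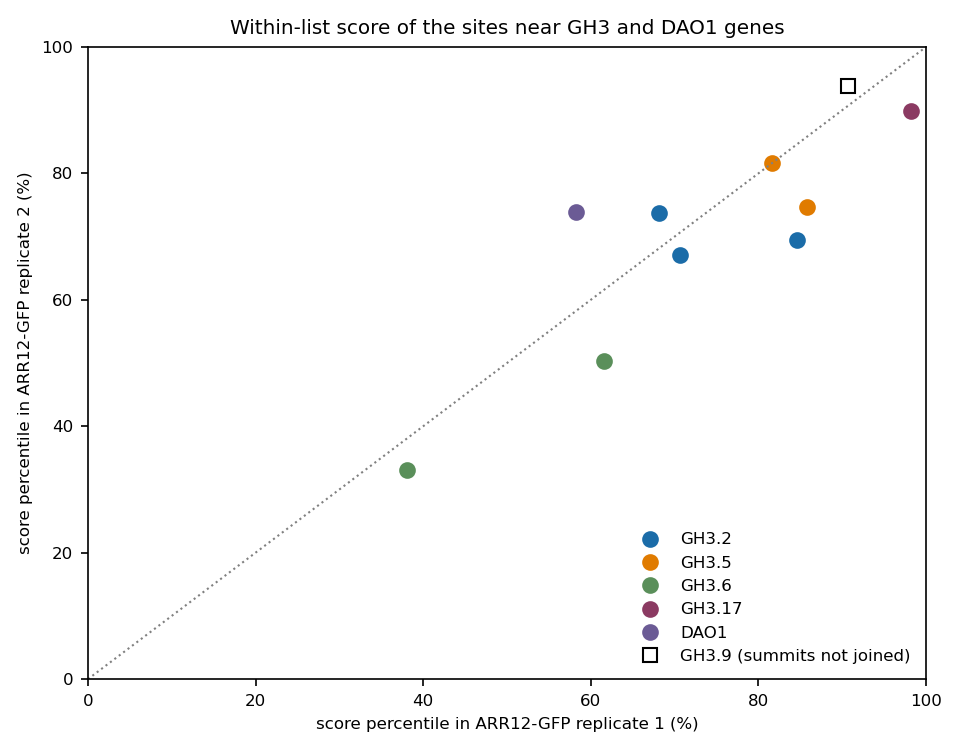
Percentile of the score within the list of ARR12-GFP replicate 1 (x axis, %) and replicate 2 (y axis, %) for the 9 reproducible sites within 3000 bp of the genes (filled circles) and for the GH3.9 summits that were not joined (open square); the dotted line marks equal percentiles. The GH3.17 site is at 98.2 and 89.9, the GH3.6 sites are lowest on the y axis, at 33.0 and 50.3, and on the x axis they are at 38.0 and 61.6, beside the DAO1 site at 58.3.

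GH3.1 (AT2G14960), a gene of the auxin-inducible branch, had a summit in replicate 1 only. It lay 842 bp away at 6454639 of chromosome 2, with a score of 12.4 and rank 3246 of 8175, while the nearest replicate 2 summit was 13322 bp away. A summit of replicate 1 without one of replicate 2 within 3000 bp was found for 14.2% of all genes.

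GH3.3 (AT2G23170) and GH3.4 (AT1G59500), both IAA-amido synthetase genes as well, had no summit of any library within 3000 bp, as had 58.2% of all genes for the ARR12-GFP libraries. The nearest summits to GH3.3 lay at 20910 bp in replicate 1 and 20985 bp in replicate 2, and those to GH3.4 at 27503 and 27442 bp. A stretch of 20000 bp on either side without any ARR12-GFP summit, a distance chosen after these values were seen, surrounded 11.5% of all genes. An absent summit shows only that no peak was called, and whether reads could be placed uniquely there was not tested.

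The 9 sites near the genes lay outside them, from 41 to 2778 bp away with a median of 1070 bp. For 6 of these sites the GH3 gene was the nearest protein-coding gene, and for the others it was CYP81F3 or AT1G14120. Neither the position outside the genes nor the nearest gene was counted over all 3503 sites. The mean score percentile of the 9 sites over both libraries had a median of 70.9, against 62.7 over all 3503 sites, and 7 of the 9 were above the latter. Summits of the 2 libraries lay 17 to 156 bp apart at these sites, with a median of 68 bp against 51 bp over all sites. Of the 24 ARR12-GFP summits within 3000 bp, 18 belonged to the joined sites and 6 did not. The 6 were the single summits at GH3.1, GH3.2, GH3.5 and GH3.17 and the pair at GH3.9. The share of all ARR12-GFP summits that belonged to joined sites was not counted, so 18 of 24 has no background here. Just inside the limit of 3000 bp lay the DAO1 summits at 2831 and 2724 bp, and just outside it lay a replicate 1 summit 3044 bp from GH3.6 with a score of 19.2, a replicate 1 summit 3342 bp from GH3.2 with a score of 5.82 and a replicate 2 summit 3556 bp from GH3.2 with a score of 4.91.

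**Figure D3:**
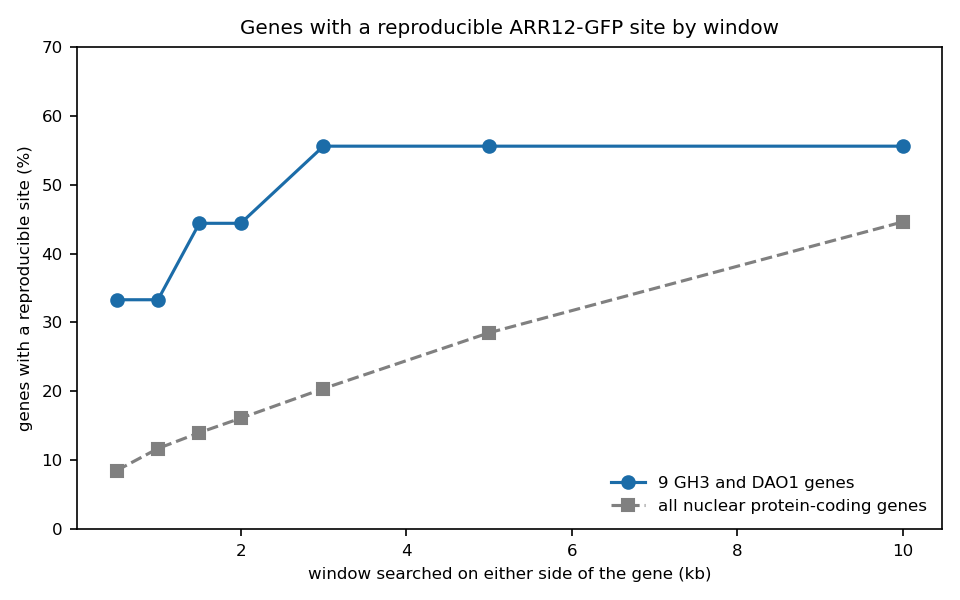
Share of genes (%) with a reproducible site by the window searched on either side (kb), for the 9 genes (circles) and all nuclear protein-coding genes (squares). The 9 genes rise from 33.3% at 0.5 kb to 55.6% at 3 kb and stay there to 10 kb, while all genes rise from 8.5% to 44.6%.

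Within 500 bp, 3 of the 9 genes (GH3.2, GH3.5 and GH3.17) had a site, against 8.5% of all genes, and within 1500 bp GH3.6 joined them, against 14.0%. Beyond 3000 bp no further member gained a site: the count was 5 of 9 at 5000 bp and at 10000 bp, where the share of all genes was 28.5% and 44.6%. At 10000 bp the share of the set was thus near that of all genes.

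The space around the genes differed as well. Within 3000 bp of either end, the 9 genes had 1475 to 6000 bp that lay outside any protein-coding gene, with a median of 4969 bp against 2541.5 bp over all genes. The genes GH3.1, GH3.2, GH3.3, GH3.5, GH3.6 and GH3.17 were among the 20% of genes with the most such space. Of those genes 23.9% had a reproducible site, and 4 of these 6 members did. GH3.1, with 6000 bp, and GH3.3, with 4725 bp, had no site. GH3.9 and DAO1, with 1475 and 1628 bp, ranked between the lowest 20% and 40% of genes by space, where 18.9% of genes had a site.

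Further genes were counted from a list of other GH3 loci, chosen by family, and from lists of auxin metabolism genes, chosen by function. Of 11 further loci listed as GH3 genes, of which the gene table used names 3 and the rest were listed from general knowledge of the family, 3 (27.3%) had a reproducible site within 3000 bp against 20.4% of all genes, and none had more than 1. JAR1 (AT2G46370), which joins jasmonic acid to isoleucine, had its site at 1779 bp with scores of 11.2 and 7.79. PBS3 (AT5G13320), which acts in salicylic acid synthesis, had a site 1881 bp away that scored 23.1 and 7.45 in replicates 1 and 2. The site of AT5G13350, 2736 bp away, scored 20.5 and 7.84. No site of these 11 loci was within 1500 bp of its gene, while 4 of the 9 members had a site that near. Of all genes, 14.0% had a site within 1500 bp, and the difference between the 2 lists was not tested.

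Of 5 genes for other routes of auxin inactivation, 3 (60%) had a site within 3000 bp, against 20.4% of all genes. The glucosyltransferase gene UGT74D1 (AT2G31750) had a site inside it that scored 14.6 and 4.22, and a further one 718 bp away at a mean percentile of 52.6. UGT74E2 (AT1G05680), which glucosylates the auxin precursor indole-3-butyric acid, had a site 101 bp away that scored 9.77 and 5.50. The third was AT1G14120 through the site it shares with DAO1. IAMT1, which methylates IAA, and UGT84B1, which glucosylates it, had none.

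Among the 7 amidohydrolase genes, whose products release free auxin or related hormones from amino acid conjugates, 4 had a site: ILR1, IAR3, ILL3 and ILL6. That is 57.1%, against 20.4% of all genes. The site inside ILL6 (AT1G44350) had scores of 37.3 and 28.7 and ranked 227 of 3503, above the GH3.17 site at 267. The site of ILR1 (AT3G02875) scored 5.52 and 3.42, rank 3475, near the end of the list. Of 14 auxin synthesis genes of the TAA and YUCCA families, 5 (35.7%) had a site, against 20.4% of all genes. These were TAA1, TAR1, YUC4 and YUC8, with sites ranked 3057, 2147, 2191 and 2965 of 3503, and YUC9. YUC9 (AT1G04180) had 2 sites, the better at 73 bp with scores of 20.2 and 11.1 and rank 1102. No gene of these lists had a Col-0 summit of either replicate within 3000 bp. Of all genes, only 0.794% had one of replicate 1 and 0.929% one of replicate 2. Sites were thus found near some genes of each list, whether the genes inactivate, make or release auxin. The differences between these short lists, and between each list and all genes, were not tested.

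**Figure D4:**
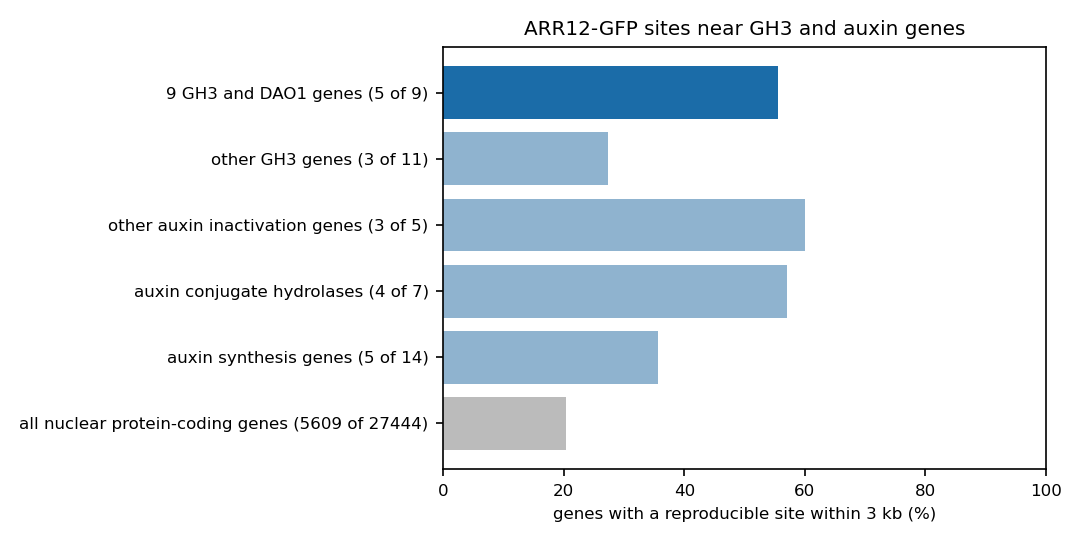
Share of genes (%) with at least 1 reproducible site within 3 kb in the set of 9 genes, in the 4 further lists (other GH3 genes and auxin metabolism genes) and over all nuclear protein-coding genes, with the counts in the labels. The set of 9 stands at 55.6%, close to the hydrolases at 57.1% and the other inactivation genes at 60%, and all genes stand at 20.4%. The site at 4832946 of chromosome 1 counts both for DAO1 in the set and for AT1G14120 among the other inactivation genes.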

How the data were processed

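Summit lists of the 4 anti-GFP libraries of 8 samples were analysed. Input libraries were not used here. The submitters' processing notes name MACS2 2.1.0, Bowtie 1.1.1, FastQC 0.11.2 and SAMtools, and genome build TAIR10. Peak-calling settings are not stated. Each list deposited by the authors holds 1 summit per peak, and consecutive peak names show calling per library. The score is the authors' −log10 of either a p-value or a q-value (the labels do not say which). More reads give more called peaks, and read depth is unknown from the lists, so summit numbers can follow depth.

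Gene extents came from a RefSeq table of assembly TAIR10.1 (all 46 listed identifiers matched). Its fit to the summits was checked by moving the summits of ARR12-GFP replicate 1: the share inside protein-coding genes was 29.2% unmoved and 57.9% and 57.4% after moves of -2000 and 2000 bp, and on each chromosome it was lowest at 0 or -100 bp. Only distances to genes are printed. GH3.2, GH3.5 and GH3.6 are listed there as BRU6, WES1 and DFL1. Names of loci without a symbol are not given, except DAO1.

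A site joined summits of both ARR12-GFP libraries by single linkage, with the midpoint of the best summit of each as its position. Percentiles and ranks are within each full list. Joining was tested on simulated lists. All 9 members are named, other listed genes where they had a site, and neighbours nearer to a member's site. Members and lists were chosen with earlier results of these data known. Replicate numbers come from the titles and give no sign of a shared culture. Calculations were made in Python 3.11.15 with pandas 2.3.3, SciPy 1.17.1 and NumPy 2.4.6, and figures with matplotlib 3.10.9.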

Additional observations from a re-analysis of the deposited data

How the results depend on the processing

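The number of members with a reproducible site was 5, and it was 4 to 5 with windows of 1500 and 5000 bp, summits joined within 100 or 500 bp, summits scoring at or above the median of their list, Col-0 summits ignored, and the nearest gene only. The share of all genes with a site was 20.4%, and 14.0% and 28.5% with windows of 1500 and 5000 bp. It was 16.6% and 23.0% with joining within 100 and 500 bp, and 20.8% with Col-0 summits ignored. For the nearest gene only, which gave 4 members, the share of all genes was not counted, and 20.4% is not its background. Windows of 500, 1000, 2000 and 10000 bp, added after the data were seen, gave 3, 3, 4 and 5 members. All genes stood there at 8.5%, 11.7%, 16.1% and 44.6%. Leaving out a library gave 5 to 7 members, where 6 and 7 are members near a summit of the single remaining ARR12-GFP library, beside 27.2% and 38.4% of all genes. Among summits at or above the median the 5 members compare with 11.6% of all genes. Members with a summit of each library numbered 6, against 24.5% of all genes. With 1500 bp searched they numbered 4, and the share of all genes under that rule was not counted. Without ARR12-GFP replicate 2, 7 members had a summit of replicate 1, against 38.8% of all genes. Without ARR12-GFP replicate 1, 6 members had a summit of replicate 2, against 27.5%. The difference in summits near the members was 12, from 8.5 (1500 bp) to 16.5 (5000 bp) and 9.5 among summits at or above the median, with an exact permutation p of 0.333 each time, and 11 to 13 without 1 library (exact permutation p = 0.667, as the doubled smaller tail of 3 labellings, with 1 library in an arm, which cannot be lower). With the replicate number as a block the difference was 12 and the paired exact permutation p was 0.5, the smallest for 2 pairs. With no summit near the members in either Col-0 library, the pairing could not be checked from them. The cause of the moves was not tested beyond the distances given for DAO1, GH3.2 and GH3.9.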

Other observations

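In a wider region of 10000 bp on either side, GH3.2 and GH3.5 had 13 ARR12-GFP summits each, while GH3.3 and GH3.4 had 0 and GH3.1 had 1. Over all protein-coding genes the median was 2, with at least 13 for 1.06% of genes and none for 27.7%. Around GH3.5, replicate 1 had 7 summits and replicate 2 had 6, and they formed 5 reproducible sites. The 3 of these beyond 3000 bp lay nearer to other genes: the site at 13660087 was 1114 bp from AT4G27270, the site at 13664275 was inside AT4G27280, and the site at 13666134 was inside AT4G27290. Around GH3.2, replicate 1 had 5 summits and replicate 2 had 8, and the 3 sites described above were the reproducible ones. The highest-scoring replicate 1 summit of that region lay 7148 bp from GH3.2 (position 17589170, score 46.6, rank 311). The nearest replicate 2 summit to it was 322 bp away (position 17589492, score 16.6, rank 744), beyond the joining distance of 200 bp but within the alternative of 500 bp. The highest-scoring replicate 2 summit lay 4918 bp from GH3.2 (position 17586940, score 19.7, rank 533) and was not joined to a replicate 1 summit at 200 bp. This window was chosen after the data were seen, and the values are given as a description.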
